A study of Mus musculus with 2 samples.

Results

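This account covers the genes of the mouse mitochondrial genome and the chromosome 1 pseudogenes that copy part of it, in differentiating erythroid cells. All 37 annotated genes of chromosome M were taken, 13 mRNAs, 2 rRNAs and 22 tRNAs, together with the chromosome 1 pseudogenes Gm10925, Gm10222, Gm28661, Gm28437 and Gm29216, which makes 42 of the 69691 entries in each gene table. The pseudogenes were chosen by their listed levels in these same libraries, so those levels are given as a description. Total RNA came from G1E-ER4, an immortalized erythroid line of male C57BL/6J origin whose parent lacks Gata1 and in which GATA1 was put back in an estradiol-dependent form. The labels give the source as postnatal, 0 day. The cells had received 10 nM 17beta-estradiol for 24 h, the inducer of their differentiation. There is 1 group with 2 biological replicates and no untreated cells, so no change with treatment could be measured and no test was run. With 2 libraries the SD covers only the spread between these cultures, and G1E-ER4 is a single line.

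The mitochondrial genome is a small circle that encodes subunits of the respiratory chain, the RNAs of the mitochondrial ribosome and the tRNAs needed to translate its mRNAs. Both strands are transcribed into long RNAs. The tRNAs lie between most of the other genes, and their excision frees the mRNAs and rRNAs. In red cell precursors mitochondria house the opening and closing steps of heme synthesis, and they are cleared as the cell matures. Nuclear genomes carry old insertions of mitochondrial DNA, and reads from a mitochondrial mRNA can match such a copy as well as its source.

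Annotated pseudogenes on chromosome 1 copied consecutive mitochondrial mRNA genes almost base for base. In GENCODE M21 (mm10), 7 unprocessed pseudogenes lie on the minus strand between positions 24611535 and 24616197 of chromosome 1, a span of 4663 bases. They stand in the order of mt-Co1, mt-Co2, mt-Atp6, mt-Co3, mt-Nd3, mt-Nd4l and mt-Nd4 and match genes within a stretch of chromosome M from 6381 to 11042, which is 4662 bases long. The pseudogene transcripts cover 4145 bases of the span. The 518 bases between them, which on chromosome M correspond to tRNA genes and most of mt-Atp8, were not compared, and other nuclear copies were not searched. The spacing was the same from the mt-Co1 copy to the mt-Nd3 copy, and it shifted by 1 base between the mt-Nd3 and mt-Nd4l copies, the interval that holds the arginine tRNA mt-Tr on chromosome M. Gm28661 (mt-Co2, 681 bases aligned), Gm10925 (mt-Atp6, 678), Gm28437 (mt-Co3, 783), Gm10222 (mt-Nd4l, 294) and Gm28439 (mt-Nd4, 876) had no mismatch. Gm28439 and Gm28438, the copy of mt-Nd3, are the annotated neighbours that the member list leaves out, and their values are given beside the members. Every 50, 75 or 100 base window of those 5 mismatch-free copies occurred unchanged in the mitochondrial gene, so a read of such a length inside them cannot be assigned by sequence.

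Differences were found in 2 copies, and they are shown because they are the only bases by which reads inside these annotated copies could be told from the mitochondrial gene. Gm29216 covers bases 1054 to 1545 of mt-Co1 with 6 substitutions, T1056A, C1057T, A1059G, A1060G, C1062A and A1066T, counted from the start of mt-Co1, all within the opening bases of the copy. The lines give 60 bases of each in the direction of the mRNA, from chrM:6381-6440 on the plus strand and chr1:24616138-24616197 on the minus strand (mm10), with the differing bases in capitals.
mt-Co1: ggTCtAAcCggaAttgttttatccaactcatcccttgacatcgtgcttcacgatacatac
Gm29216: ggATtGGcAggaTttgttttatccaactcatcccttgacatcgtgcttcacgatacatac
Downstream of those bases the copy was identical to mt-Co1, and 96.7% of its 100 base windows occurred in mt-Co1. Gm28438 differed from mt-Nd3 by the single substitution T3C in the start codon, in capitals in the opening 30 bases from chrM:9459-9488 (plus strand) and chr1:24613090-24613119 (minus strand).
mt-Nd3: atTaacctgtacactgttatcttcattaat
Gm28438: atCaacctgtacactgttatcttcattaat
The annotations of the mt-Co2, mt-Atp6, mt-Nd3 and mt-Nd4l copies also stop 3 bases short of the mitochondrial gene's end, before its stop codon. An annotated end does not show that chromosome 1 lacks those bases. The stop codon of mt-Nd4l lies within the opening bases of mt-Nd4, which Gm28439 copies without mismatch at the same spacing. Chromosome 1 therefore carries it. For mt-Nd4l (chrM:9877-10173, plus strand, 297 bases) the last 3 bases are in capitals, and the rest is identical to Gm10222 (chr1:24612407-24612700, minus strand).
mt-Nd4l: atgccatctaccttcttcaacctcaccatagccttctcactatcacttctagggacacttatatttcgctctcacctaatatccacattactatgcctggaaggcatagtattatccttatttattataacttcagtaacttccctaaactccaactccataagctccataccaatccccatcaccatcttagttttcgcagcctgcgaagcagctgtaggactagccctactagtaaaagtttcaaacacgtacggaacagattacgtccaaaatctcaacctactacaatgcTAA

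Mitochondrial transcripts were a large part of these libraries, and most of them were rRNA. Their expected counts, the estimated number of reads per gene, came to 6963489 of 50277914 in replicate 1 and 7016487 of 47478888 in replicate 2. That is 13.85% in replicate 1 (Wilson 95% interval 13.84% to 13.86%) and 14.78% in replicate 2 (14.77% to 14.79%). The mean of 14.3% ± 0.656 (SD, n = 2) became 31.8% ± 0.678 when the rRNA-like nuclear loci Gm42418 and Gm26917 were left out of the total. These intervals cover counting error only. The rRNAs held 11.8% ± 0.511, the 13 mRNAs 2.54% ± 0.145 and the 5 copies another 0.469% ± 0.0454 (SD, n = 2 for each). With copies included, mitochondrial mRNA made up 22.2% of the protein-coding TPM in replicate 1 and 23.4% in replicate 2, and 9.32% and 9.52% of the protein-coding counts. TPM is the transcript level per length, scaled to the same total in each library, so the rRNA-like loci lower every other TPM. In bulk RNA, cells rich in mitochondria and more mitochondrial RNA in every cell cannot be told apart.

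The mitochondrial rRNAs were the highest members. mt-Rnr1, the RNA of the small ribosomal subunit (ENSMUSG00000064337.1, chrM:70-1024), stood at 87398 TPM in replicate 1 and 92683 in replicate 2 (mean 90040 ± 3737). mt-Rnr2, the RNA of the large subunit (ENSMUSG00000064339.1, chrM:1094-2675), had 68987 and 73113 (mean 71050 ± 2918, SD, n = 2 for each). mt-Rnr1 lay above mt-Rnr2 in both libraries and their ranges did not overlap. The ratio of mt-Rnr2 to mt-Rnr1 was nearly the same in the libraries, 0.789 ± 0.000348 on TPM (SD, n = 2). On counts, which are not divided by length, the longer mt-Rnr2 led with a ratio of 1.38 ± 0.00130. Only the valine tRNA gene mt-Tv lies between them, and in the cell they are cut from a common precursor. An average rRNA stood at 15.6 ± 0.220 times an average mRNA on TPM, with copies included. The deposited posterior SD of their counts, which measures how far reads could be reassigned to other sequences, was at most 0.04 counts.

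No tRNA level could be read. All 22 tRNA genes are 59 to 75 bases long and were listed at 0 counts in both replicates. Effective length, the part of a gene where a fragment can start, was 119 bases shorter than length in replicate 1 and 123 in replicate 2 for a long gene, and it was 0 for every tRNA. The labels also give an RNA size range above 200, with no unit. The listed 0 says nothing of how much tRNA the cells held. Of the tRNA genes 14 lie on the same strand as most mRNAs and 8 on the opposite strand.

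The mRNAs spanned a wide range although 12 of the 13 are cut from transcripts of the same strand. Summed with the 5 copies, the highest mRNA exceeded the lowest by 140-fold in replicate 1 and 118-fold in replicate 2 on TPM. The lowest, mt-Nd3, has its copy Gm28438 outside the member list, and with all 7 copies added the span was 78.7-fold in replicate 1 and 101-fold in replicate 2. In decreasing order of mean TPM they ran mt-Atp8, mt-Atp6, mt-Nd2, mt-Co1, mt-Cytb, mt-Nd4l, mt-Nd4, mt-Nd1, mt-Co2, mt-Nd5, mt-Co3, mt-Nd6 and mt-Nd3. Of the 13, 9 held the same rank in both replicates. Only mt-Nd2 and mt-Co1, and mt-Co2 and mt-Nd5, had ranges that overlapped their neighbour in the order and exchanged places. The place of mt-Co1 rests on adding the TPM of the shorter Gm29216. With the counts of both pooled over the effective length of mt-Co1 it had 6182 and 6255, below mt-Nd2 and mt-Cytb. By mean, 5 of the mRNAs lay above Eef1a1, a translation elongation factor and the highest nuclear protein-coding gene at 5096 ± 151. The next nuclear genes, the glycolytic enzyme Gapdh (4048 ± 8.01) and the histone gene Hist1h4d (2387 ± 195), lay among the middle mitochondrial mRNAs (SD, n = 2 for each).

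**Figure D1:**
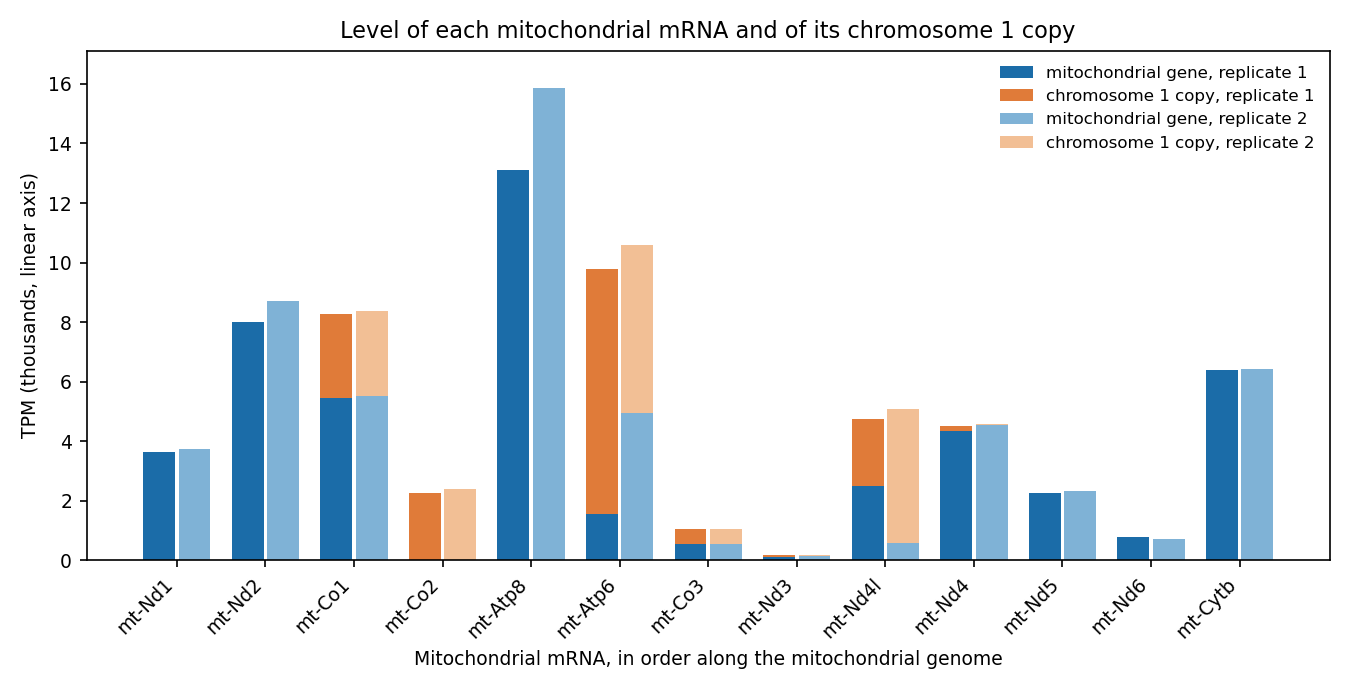
TPM on a linear axis of the 13 mitochondrial mRNAs in order along the genome. Each stacked bar is 1 library, dark for replicate 1 and light for replicate 2, with the mitochondrial gene in blue and its chromosome 1 copy, all 7 copies included, in orange. The split of mt-Atp6 and mt-Nd4l moves between the replicates while the bar heights stay close, at 9779 and 10593 TPM for mt-Atp6 with Gm10925.

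Complex V, the ATP synthase, had the highest mRNAs per subunit on TPM. mt-Atp8 (chrM:7766-7969) encodes a small subunit of its membrane part and stood at 13108 TPM in replicate 1 and 15849 in replicate 2 (mean 14478 ± 1938). mt-Atp6, the proton channel subunit (chrM:7927-8607), had 9779 and 10593 with Gm10925 (mean 10186 ± 576, SD, n = 2 for each). On TPM both lay above every other mRNA in both libraries. Per base of full length, with copies pooled, mt-Atp6 stayed highest at 268 ± 4.56 counts, while mt-Atp8 at 194 ± 13.8 fell below mt-Nd2 at 237 ± 5.43 in both libraries (SD, n = 2 for each). In replicate 1 mt-Atp8 also lay below mt-Co1 and mt-Cytb on that scale. The pair made up 36.6% ± 1.71 of mitochondrial mRNA TPM, but 15.1% ± 0.513 of the counts. Counts are not divided by length, and mt-Atp8 is only 204 bases long, with an effective length of 87.2 bases in replicate 1 and 83.9 in replicate 2. Its 37685 and 41656 counts had a posterior SD of 0. mt-Atp8 lies within the stretch of chromosome M that the copied genes span. No chromosome 1 gene is annotated at the matching place, and most of mt-Atp8 was not compared there. The posterior SD covers listed sequences only.

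mt-Atp8 and mt-Atp6 share 1 mRNA and overlap by 43 bases. The overlap is in capitals in mt-Atp8 (chrM:7766-7969, plus strand), and the same bases open mt-Atp6 and Gm10925. This stretch is shown because 3 listed genes hold it.
mt-Atp8: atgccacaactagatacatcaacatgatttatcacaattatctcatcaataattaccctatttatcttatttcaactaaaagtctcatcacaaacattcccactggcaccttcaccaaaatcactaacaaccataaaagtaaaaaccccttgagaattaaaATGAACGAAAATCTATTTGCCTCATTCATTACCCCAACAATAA
The ratio of mt-Atp8 to mt-Atp6 was 8.41 in replicate 1 and 3.20 in replicate 2 when mt-Atp6 was taken alone. With Gm10925 added it was 1.34 and 1.50 (mean 1.42 ± 0.110, SD, n = 2). With counts divided by full instead of effective length it was 0.725 ± 0.0390, which put mt-Atp6 above mt-Atp8. The other shared mRNA carries mt-Nd4l and mt-Nd4, which overlap by 7 bases. The ratio of mt-Nd4l to mt-Nd4 was 0.578 and 0.128 alone, and 1.10 and 1.12 with Gm10222 added (mean 1.11 ± 0.0154). With full lengths, and Gm28439 added to mt-Nd4, it was 0.703 ± 0.00744 (SD, n = 2). On TPM with copies the partners of each shared mRNA therefore lay within 1.5-fold of each other in both libraries.

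Complex IV, cytochrome c oxidase, was led by mt-Co1. mt-Co1 (chrM:5328-6872) forms the catalytic core and stood at 8263 TPM in replicate 1 and 8368 in replicate 2 with Gm29216 (mean 8315 ± 74.5). Gm29216 covers only 31.8% of mt-Co1, and pooling the counts of both over the effective length of mt-Co1 gave 6219 ± 51.9, below mt-Cytb in both libraries. mt-Co2 (chrM:7013-7696), which takes electrons from cytochrome c, had 2246 and 2389 with Gm28661 (mean 2318 ± 102). mt-Co3 (chrM:8607-9390), a structural subunit beside the core, had 1050 and 1048 with Gm28437 (mean 1049 ± 1.53, SD, n = 2 for each). The ranges of these 3 did not overlap, and mt-Co1 was 7.93 ± 0.0825 times mt-Co3. mt-Co3 abuts mt-Atp6 with 1 shared base and no tRNA between, yet mt-Atp6 with its copy stood at 9.71 ± 0.563 times mt-Co3 with its copy.

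mt-Cytb (chrM:14145-15288), the cytochrome b gene and the only complex III subunit of this genome, had 6385 in replicate 1 and 6417 in replicate 2 (mean 6401 ± 22.5, SD, n = 2). It has no annotated chromosome 1 copy, and the libraries differed by 0.01 on the log2 scale.

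Complex I, the NADH dehydrogenase, has 7 mRNAs here, which ran from 114 to 8359 in mean TPM. mt-Nd2 (chrM:3914-4951) had 7994 and 8724 (mean 8359 ± 516). mt-Nd4l with Gm10222 had 4747 and 5090 (mean 4919 ± 243), and mt-Nd4 had 4328 and 4551 (mean 4439 ± 158, SD, n = 2 for each). These 3 are membrane-arm subunits, and mt-Nd2 lay above the others in both libraries. mt-Nd1, at the joint of the membrane arm and the peripheral arm, had 3642 and 3746. mt-Nd5, at the far end of the membrane arm, had 2264 and 2321. mt-Nd1 lay above mt-Nd5 in both libraries.

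mt-Nd3 (chrM:9459-9806) was the lowest mRNA. It stood at 93.6 TPM in replicate 1 and 135 in replicate 2 (mean 114 ± 29.0), from 707 and 950 counts. With Gm28438, which lies outside the member list, it had 166 and 157 (mean 162 ± 6.41, SD, n = 2), and remained lowest. Only the arginine tRNA gene mt-Tr lies between mt-Nd3 and mt-Nd4l, and the mt-Nd4l pair stood at 30.4 ± 2.71 times the mt-Nd3 pair. Both genes have a copy on chromosome 1.

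The light strand had a single low mRNA. mt-Nd6 (chrM:13552-14070, minus strand) is the only mRNA on the opposite strand and had 762 in replicate 1 and 704 in replicate 2 (mean 733 ± 41.4). It made up 1.09% ± 0.122 of mitochondrial mRNA TPM and 0.639% ± 0.0586 of the counts (SD, n = 2), and the average of the other 12 mRNAs was 7.59 ± 0.858 times its level. Its base composition also stood apart, with 5.97% C and 28.1% G, where the other 12 had 22.1% to 30.0% C and 5.88% to 16.1% G. mt-Nd6 overlaps mt-Nd5 by 14 bases, and the long transcript of the other strand runs across all of it. The deposited listing names separate signal tracks for each strand, but whether the gene counts used strand is not given in the sources used here, so reads of that antisense RNA cannot be told apart from mt-Nd6.

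Gene ends differed as well. In the M21 transcripts 10 of the 13 mRNAs ended on a complete stop codon. mt-Co3, mt-Nd4 and mt-Cytb ended on a lone T, the known case in mitochondria where the poly(A) tail completes the stop codon. An ATG opened 9 of the 13, with GTG in mt-Nd1, ATA in mt-Nd2, ATT in mt-Nd3 and ATC in mt-Nd5. Of 36 neighbouring gene pairs on chromosome M, 12 abutted and 9 overlapped. The stretch from mt-Tp, which ends at 15422, round the circle to mt-Tf at base 1 was not among these pairs. Within the 36 pairs the largest gap, 32 bases between mt-Tn and mt-Tc, is where the origin of light-strand replication lies. No relation of these features with level was tested.

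How reads were divided between a mitochondrial gene and its copy differed from pair to pair and, for some, from library to library. Gm10925 (chr1:24613974-24614651) took 84.0% of the counts of its pair with mt-Atp6 in replicate 1 and 53.2% in replicate 2. Gm10222 (chr1:24612407-24612700) took 46.8% and 88.4% of its pair with mt-Nd4l. The larger part of the expected counts was thus listed under the copy of mt-Atp6 in both libraries. For mt-Nd4l it was listed under the copy only in replicate 2. The deposited posterior mean counts gave mt-Atp6 the larger part in replicate 2, with 108376 against 76417 for Gm10925. In replicate 1 they gave 51019 against 129385. For mt-Co2 nearly all expected counts were listed under Gm28661 (chr1:24614885-24615565), 99.6% and 99.2%, which left mt-Co2 itself with 163 and 343 counts. The posterior mean counts were less one-sided, with 6268 and 6224 for mt-Co2 and 35347 and 35578 for Gm28661. Gm28437 (chr1:24613189-24613971) took 48.6% and 47.6% of the mt-Co3 pair, close to an even split in both libraries. Gm29216 (chr1:24615706-24616197) took 11.9% and 11.8% of the mt-Co1 pair. Of the copies outside the list, Gm28438 took 43.5% and 14.3% with mt-Nd3, and Gm28439 took 2.36% and 0.304% with mt-Nd4.

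Where the split moved between the libraries, the pair total stayed close. For 5 of the 7 pairs the summed expected count was a whole number in both libraries to within 0.01 counts, although no mitochondrial gene of a pair had a whole count of its own in both. mt-Atp6 had 28887 counts and Gm10925 151517 in replicate 1, which sum to 180404, and in replicate 2 they sum to 184793. mt-Nd4l and Gm10222 sum to 27680 and 27419. The deposited posterior SD was equal within 1 count for gene and copy in all 7 pairs, 24165 in replicate 1 and 37541 in replicate 2 for mt-Atp6 and Gm10925 alike.

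The authors also deposited an interval of the posterior TPM, whose level is not stated. mt-Co2 ran from 7.23 to 1101 in replicate 1 and from 9.33 to 1535 in replicate 2. mt-Atp6 ran from 1428 to 5188 and from 3442 to 9113, so the intervals of the 2 libraries overlapped. For mt-Nd4l they ran from 2075 to 2877 and from 250.0 to 862 and did not overlap. mt-Co1, most of which lies outside its copy, had narrow intervals of 5299 to 5342 and 5346 to 5392. Its listed TPM of 5445 and 5515 lay above them. In replicate 1, 13 members had a listed TPM outside their interval, both rRNAs among them. The intervals therefore do not bound the TPM values given here. Of the 6 mRNAs without an annotated copy, all had a posterior SD under 1 count in both libraries.

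**Figure D2:**
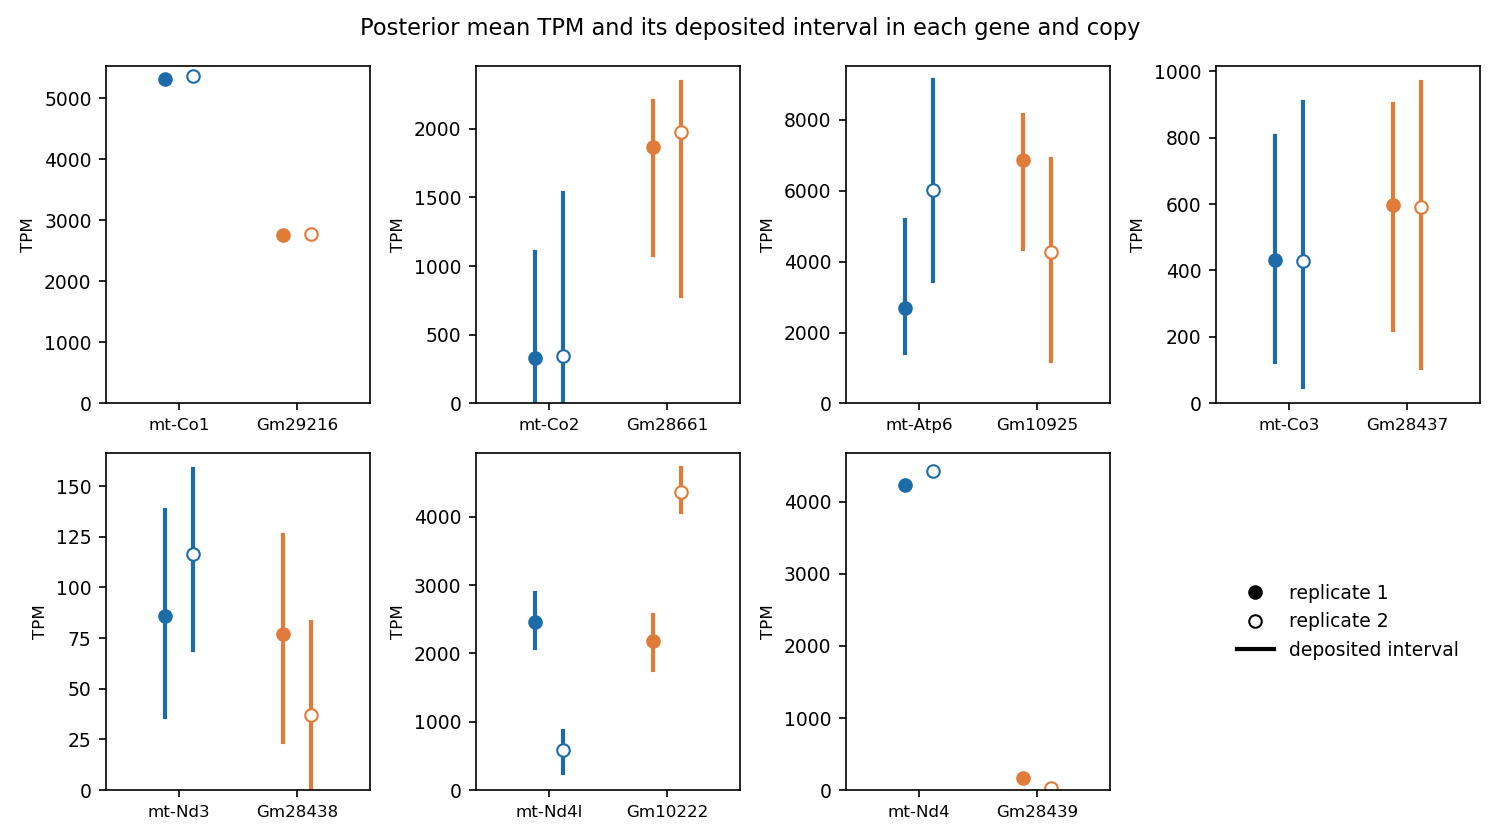
Posterior mean TPM (linear axis from 0) of each mitochondrial gene (blue) and its chromosome 1 copy (orange), with filled points for replicate 1, open points for replicate 2 and lines for the deposited interval. The intervals of mt-Co3 and Gm28437 overlap widely, those of mt-Nd4l and Gm10222 overlap in replicate 1 and lie apart in replicate 2, and those of mt-Co1 and Gm29216 are narrower than the points.

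Of the 42 members, 20 had a mean TPM of 1 or more, and the other 22 are the tRNAs. Among the 20, 4 differed 2-fold or more between the replicates as listed, namely mt-Atp6, mt-Nd4l, mt-Co2 and Gm10222. Across all 9971 named genes at that level the share was 4.68%, and among nuclear protein-coding genes it was 1.95%. The log2 ratio (replicate 2 over replicate 1, TPM + 0.1) was 1.67 for mt-Atp6 and -0.54 for Gm10925, -2.11 for mt-Nd4l and 1.01 for Gm10222, and 1.15 for mt-Co2 and 0.08 for Gm28661. On posterior mean TPM mt-Co2 had 329 in replicate 1 and 345 in replicate 2, a log2 ratio of 0.07, and did not differ 2-fold. With the 5 listed copies added to their mRNAs, and mt-Nd3 and mt-Nd4 taken alone, 0 of 15 levels, the 13 mRNAs and 2 rRNAs, differed 2-fold. Their log2 ratios ran from -0.12 for mt-Nd6 to 0.52 for mt-Nd3, and with Gm28438 mt-Nd3 was at -0.08. The SD of the log2 ratio over the 13 mRNAs was 0.85 alone, 0.16 with the 5 copies and 0.10 with all 7. Over all named genes with a mean TPM at or above 1 it was 0.83, close to that of the mRNAs alone, and over nuclear protein-coding genes it was 0.37.

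**Figure D3:**
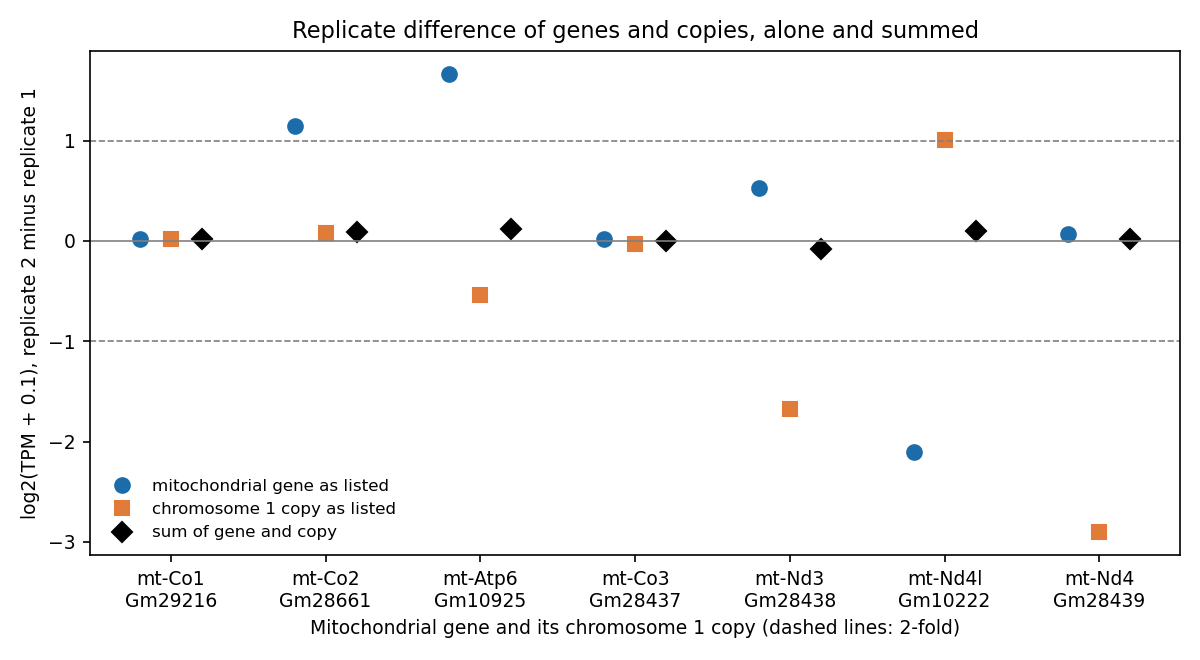
Difference between the replicates in log2(TPM + 0.1) for the 7 mitochondrial genes with an annotated copy (blue circles), the copies (orange squares) and the sums (black diamonds). Dashed lines mark 2-fold. Genes alone range from -2.11 to 1.67 and copies from -2.91 to 1.01, while the sums lie between -0.08 and 0.12.

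The nuclear genes listed for expression and upkeep of the mitochondrial genome were measurable at low to moderate levels. Of 66 genes in 6 lists, 65 were matched by name, and all 65 reached a TPM of 1 in each replicate, against 40.2% of the 21461 nuclear protein-coding genes. At a TPM threshold of 5 there were 39. Their median TPM of 7.29 lay below the median of 9.44 over the 8808 nuclear protein-coding genes whose mean TPM was at least 1. The list of RNA stability, polyadenylation and decay genes had the highest median, 18.4, and the list of rRNA modification and ribosome assembly genes the lowest, 2.69.

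Transcription of the mitochondrial genome needs the polymerase Polrmt, the packaging and promoter factor Tfam and the initiation factor Tfb2m. Polrmt had 13.7 in replicate 1 and 12.7 in replicate 2, and Tfam 14.5 and 12.2. The terminator family member Mterf3 was highest in this list at 19.8 and 22.8. Its relatives Mterf2 (2.29 ± 0.0849) and Mterf1b (2.08 ± 0.262) were lowest (SD, n = 2), and Mterf1b may share reads with its close paralog Mterf1a. The ranges of Polrmt and Tfam overlapped.

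Among the processing genes the FASTK family member Fastkd2, which binds mitochondrial RNA, led at 33.2 and 36.7. Fastk had 20.9 ± 1.44 and Tbrg4 19.1 ± 0.431, and Fastkd5 (6.57 ± 0.898) and Fastkd3 (6.44 ± 0.445) were lowest (SD, n = 2). In the stability and decay list the oligoribonuclease Rexo2 had 51.1 and 52.7, the highest of all 65. Next by mean were the RNA granule protein Grsf1 with 27.1 and 33.3 and the mRNA stabilizer Lrpprc with 29.2 and 28.1. The ranges of Grsf1 and Lrpprc overlapped. The helicase Supv3l1 (7.51 ± 1.54) and the poly(A) exonuclease Pde12 (5.04 ± 0.163) were lowest. Rexo2 lay above every other listed gene in both libraries.

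For rRNA modification and ribosome assembly the GTPases Noa1 (14.2 ± 1.75) and Eral1 (12.2 ± 1.84) and the rRNA dimethylase Tfb1m (7.22 ± 0.693) were highest. The methyltransferases Trmt61b (1.36 ± 0.339) and Mrm2 (1.21 ± 0.177) were lowest (SD, n = 2). Among genes for mtDNA upkeep the primase-polymerase Primpol (22.2 ± 3.41), the single-stranded DNA binding protein Ssbp1 (20.9 ± 0.735) and the polymerase Polg (14.5 ± 0.856) led, with Top1mt (1.89 ± 0.955) and the accessory subunit Polg2 (1.83 ± 0.283) lowest. Among translation genes the elongation factors Tufm (25.4 ± 3.71) and Gfm1 (23.3 ± 1.31) and the insertase Oxa1l (19.6 ± 0.0354) led, and Mtif3 (4.01 ± 0.325) and Mtrf1 (3.71 ± 0.240) were lowest. In these lists 2 of 65 genes differed 2-fold or more between the replicates, near the background of 1.95% of nuclear protein-coding genes and 4.68% of all named genes. They were Dhx30 with 1.00 and 4.37 TPM and Top1mt with 1.21 and 2.56. Dhx30 was named after its values were seen.

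**Figure D4:**
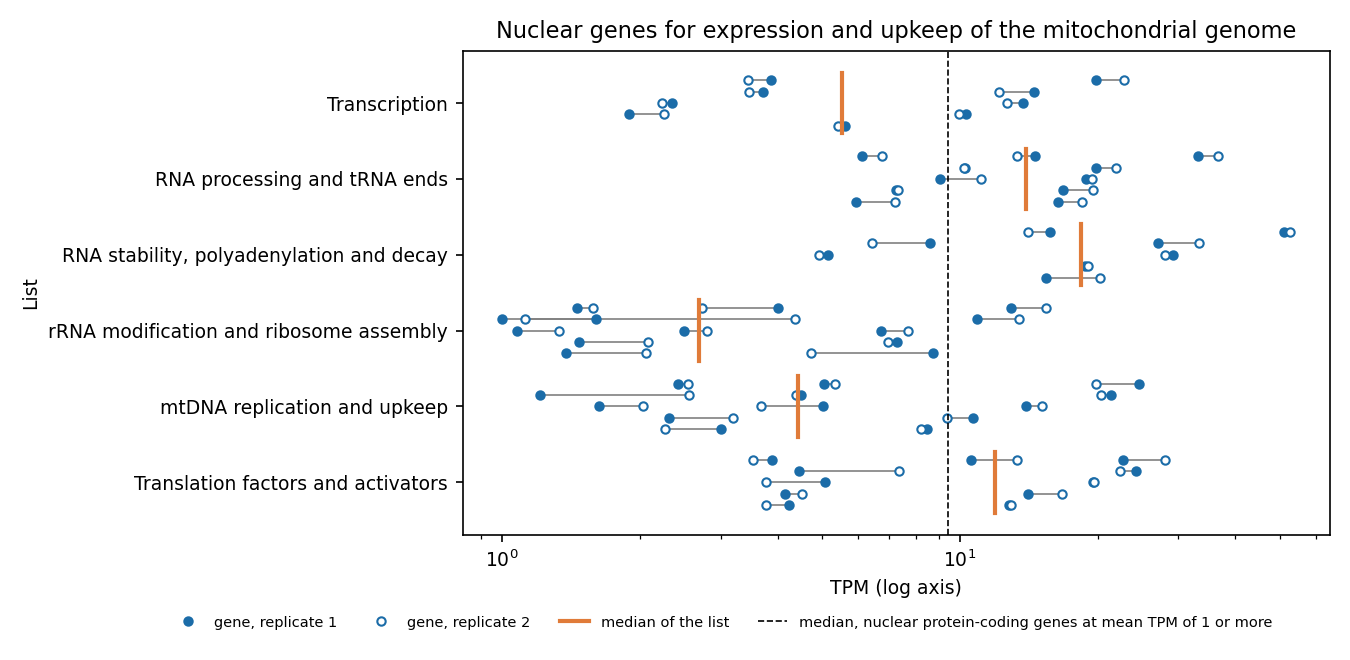
TPM (log axis) of 65 nuclear genes in 6 lists of mitochondrial genome expression and upkeep, filled points for replicate 1 and open points for replicate 2 joined by a line, with the list median in orange. The dashed line is the median of 9.44 over nuclear protein-coding genes whose mean TPM was at least 1, and the stability and decay list has the highest median, 18.4.

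Erythroid markers were present in both libraries. All 10 erythroid markers reached a TPM of 1 in each replicate, and 4 of 21 markers of granulocytes and macrophages, mast cells, megakaryocytes, lymphoid and stromal cells did. Those 21 summed to 56.1 TPM in replicate 1 and 51.9 in replicate 2, most of it from the mast cell protease gene Cpa3 (27.4 ± 0.912) and the platelet factor gene Pf4 (19.0 and 10.5). Itga2b (5.75 and 6.94) and Hdc (1.92 and 1.89) were also detected. Cpa3 lay above the erythroid markers Alas2 (10.8 and 10.6) and Epor (8.97 and 8.94) in both libraries. Its range overlapped that of Klf1 (24.8 and 29.0), and the other erythroid markers lay above it, up to Hbb-bs (994 and 1008). Of the 21, 8 had no count in either library, among them Csf1r, Fcer1a, Cd3e and Cdh5. Others had a few counts, such as Lyz2 with 10 and 6, Lck with 4 and 11 and Pecam1 with 11 and 0. The granulocyte genes Mpo, with 1 count in replicate 1 and 70 in replicate 2, and Elane, with 0 and 17, were higher in replicate 2. These genes were named after their values were seen. Their part in the mitochondrial levels was not tested.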

How the data were processed

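Each library has 1 gene table. The labels give mm10 as assembly, and headers of the deposited listing give M4, a GENCODE release, as annotation. The column names are those RSEM writes. Not given in the sources used here were aligner and tool versions. Expected counts, as deposited, estimate the reads of each gene after division among matching sequences, without normalization. TPM and FPKM were deposited by the authors, TPM scaled over all listed features and FPKM by length and depth. Posterior means, SDs and intervals were also deposited. Genes were matched to GENCODE M21 by identifier without version (42462 matched, 884 did not), and all 44 chromosome M genes and copies had 1 transcript of the M21 length. Copies were placed on M21 transcripts without gaps at the offset with most matching bases.

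No contrast exists, so no test was run. Values are mean ± SD, and 0.1 was added to TPM before log2 ratios, so low genes are understated. Ratios and sequence comparison were tested on simulated data. Total expected counts were 50277914 and 47478888, from reads without molecular identifiers. The members, lists and thresholds were chosen with earlier results of these data known. Named genes are all members and copies, and the 3 highest and 2 lowest of each machinery list, with the 3 highest nuclear genes as a scale. Mtrfr was not analysed here. Tables were handled in pandas 2.3.3 and numpy 2.4.6 under Python 3.11.15, intervals with scipy 1.17.1 and plots with matplotlib 3.10.9.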

Additional observations from a re-analysis of the deposited data

How the results depend on the processing

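The share of counts on chromosome M genes, 14.3%, was 31.8% without Gm42418 and Gm26917 in the denominator. The summed mRNA TPM of 67298 was 51344 with genes alone, 228079 rescaled over protein-coding genes, and 44293 in FPKM. On expected counts mt-Rnr2 over mt-Rnr1 was 1.38 in place of 0.789. The mt-Nd6 share of 1.09% was 1.43% without copies and 0.639% on counts. Without copies and on counts, complex I moved from 36.5% to 41.4% and 46.8%, complex III from 9.53% to 12.5% and 14.3%, complex IV from 17.4% to 11.8% and 23.7%, and complex V from 36.6% to 34.3% and 15.1%. The 17.4% of complex IV adds the full TPM of Gm29216, which covers only 31.8% of mt-Co1. With pooled counts mt-Co1 was 6219 TPM in place of 8315, which would lower that share. Complex shares with pooled counts were not computed. The mt-Atp8 to mt-Atp6 ratio of 1.42 was 5.81 with the gene alone, 0.217 on counts and 0.725 over full length. That of mt-Nd4l to mt-Nd4, 1.11, was 0.353, 0.154 and 0.703. The span of the mRNAs, 129-fold on average, was 89.7-fold with all 7 copies and 79.5-fold over full length. At a TPM threshold of 5, 39 of 65 machinery genes remained detected. Counts are not divided by length, and sums without copies leave out the reads listed there. The use of all 7 copies, of counts pooled over the gene's effective length and of full lengths was chosen after seeing the data. As listed, 4 members lay 2-fold apart with either pseudocount and without the filter, and 3 on scaled counts and on posterior means, while 0 of the summed levels did in each case. Leaving out 1 of 2 libraries moves a mean by less than its SD by construction, so it shows nothing of stability. No paired analysis was possible because there is only 1 group. The short effective length of mt-Atp8 and of the tRNAs limits what their values can show.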
